A study of Mus musculus with 2 samples.

Results

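S100a5, Pcp4l1, Calb2 and Scgn are 4 genes of calcium-binding proteins and calcium signalling in olfactory sensory neurons, taken by symbol from the 31053 genes of a single-cell count matrix of the mouse olfactory epithelium. They were selected on measured values, because they had differed between the 2 libraries in mature neurons, so that difference is described here and supports nothing. The tissue came from a male C57BL/6 mouse at postnatal day 28, after unilateral naris occlusion at postnatal day 14, a procedure that closes 1 nostril and keeps airborne odours and airflow from that side. The closed (left) and the open (right) side each gave 1 library of frozen dissociated cells, passed through dead cell removal and made with the Chromium 3' v3 chemistry. The labels name a single mouse, with no animal that was not operated on, and no label ties a barcode suffix to a side, so the libraries are called library 2 and library 1 after their suffixes. With 1 library a side there is no replicate check of any difference, and intervals in brackets are 95% intervals of counting error only.

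Calcium enters the cilia of an olfactory neuron when odour opens the cyclic nucleotide-gated channel, and calcium-binding proteins buffer that rise, carry it to target enzymes, or help to end the response. S100a5 encodes an EF-hand protein of the S100 family that is known in olfactory neurons as an activity-dependent transcript. Calb2 encodes the buffer calretinin, Scgn encodes the EF-hand sensor secretagogin, and Pcp4l1 encodes a small IQ-motif protein related to the calmodulin regulator Pcp4. Each mature olfactory neuron expresses 1 odorant receptor gene out of a very large family, so cells can be sorted by the receptor they carry. In the mm10 build with GENCODE M21, S100a5 (ENSMUSG00000001023) lies on chromosome 3 from 90608523 to 90611780 on the plus strand, Pcp4l1 (ENSMUSG00000038370) on chromosome 1 from 171173262 to 171196268, Calb2 (ENSMUSG00000003657) on chromosome 8 from 110137502 to 110168210 and Scgn (ENSMUSG00000021337) on chromosome 13 from 23953456 to 23991214, these 3 on the minus strand.

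The promoter sequences of S100a5 and Pcp4l1 are given because these genes were high in the same cells, and that of Scgn because its pattern differed from theirs. Each run is the 250 bases before the RefSeq start (GRCm38.p6), 5′ to 3′ on the gene's strand, at chr3:90608272-90608521 (plus strand) for S100a5, chr1:171196269-171196518 (minus strand) for Pcp4l1 and chr13:23991215-23991464 (minus strand) for Scgn. Capitals mark ATTGG in the first and second, the reverse complement of the CCAAT box, and TGAGTCA in Scgn, a match to the AP-1 motif TGANTCA.
S100a5: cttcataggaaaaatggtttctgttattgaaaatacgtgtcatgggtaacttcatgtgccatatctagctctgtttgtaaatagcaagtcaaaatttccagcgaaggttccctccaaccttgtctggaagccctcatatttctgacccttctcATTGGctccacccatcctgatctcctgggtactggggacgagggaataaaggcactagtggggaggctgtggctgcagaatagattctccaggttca
Pcp4l1: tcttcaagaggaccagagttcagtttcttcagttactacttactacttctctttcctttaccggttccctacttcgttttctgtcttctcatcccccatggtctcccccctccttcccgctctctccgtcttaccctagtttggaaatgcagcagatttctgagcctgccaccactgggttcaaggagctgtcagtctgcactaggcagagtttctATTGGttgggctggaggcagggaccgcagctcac
Scgn: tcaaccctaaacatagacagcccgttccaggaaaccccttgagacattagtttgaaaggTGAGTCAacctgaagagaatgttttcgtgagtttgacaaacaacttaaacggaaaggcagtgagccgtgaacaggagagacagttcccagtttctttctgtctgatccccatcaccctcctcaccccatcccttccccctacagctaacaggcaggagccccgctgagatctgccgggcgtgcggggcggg

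The CCAAT box was added after the sequences had been read; on either strand it stood in 33.8% of the 32851 RefSeq promoters of the same length, at 97 to 93 bases before the start of S100a5 and at 34 to 30 bases before that of Pcp4l1. The AP-1 motif stood in 6.75% of promoters and at 191 to 185 bases before the start of Scgn. The other motifs searched on both strands were CRE (TGACGTCA, 1.55% of promoters), its shorter form TGACG (17.8%), the homeodomain core TAATTA (4.84%), the EBF core CCCNNGGG (11.8%), Egr (GCGNGGGCG, 4.70%), TATAAA (12.4%) and the E-box CAGCTG (13%), and none of these had a match in the 3 windows. The motif TGACG lies inside the full CRE. These matches describe letters and not binding.

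Of 12491 barcodes, 8298 passed the filters, 5266 in library 2 and 3032 in library 1, with medians of 5139.5 and 5528 UMIs (unique molecular identifiers, each standing for 1 captured RNA molecule). Before filtering, library 2 held 49221001 UMIs and library 1 held 27212821. The libraries shared 12 barcode sequences, 6 of them among kept cells. Cells were clustered without the 4 members and without receptor genes, and clusters were named by marker genes. Mature OSN-like cells (olfactory sensory neurons) numbered 463 in library 2 and 439 in library 1. Their level of Omp, the classical marker of mature olfactory neurons, was 5961 CPM in library 2 and 5384 CPM in library 1, where CPM is UMIs per 1000000 UMIs of that class. Their level of Gap43, a growth-cone protein of immature neurons, was 63.5 CPM in library 2 and 49.8 CPM in library 1, against 1765 CPM and 1566 CPM in immature OSN-like cells of library 2 and library 1. Cluster 4 (280 cells in library 2 and 133 in library 1) held Omp and Gap43 at levels between those stages and stays unnamed, as does cluster 9 (161 cells in library 2 and 62 in library 1), which lay between the early and the immature cells.

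Along the lineage the 4 genes appeared in a different order. Pcp4l1 was present from the early cells on, Calb2 appeared before Omp was high, S100a5 appeared with Omp, and Scgn was low until the mature stage. Pooled over libraries and set against immature OSN-like cells, mature OSN-like cells had 7866 against 89.8 CPM of S100a5 (log2 difference 6.44, interval 6.27 to 6.64), 887 against 140 CPM of Pcp4l1 (2.65, 2.51 to 2.82), 1036 against 1697 CPM of Calb2 (-0.71, -0.77 to -0.65) and 74.0 against 1.12 CPM of Scgn (5.15, 4.49 to 8.33). Thus 3 of the 4 members stood 2-fold or more higher at the mature stage, where 10.8% of the 9518 genes counted did, and 0 stood 2-fold or more lower, where 14.9% did. The members were chosen on their values in mature cells, so these counts follow in part from that choice and are only a description. Scgn had only 3 UMIs in all immature OSN-like cells, which makes its interval wide.

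S100a5 went through its largest step between the immature OSN-like cells and cluster 4. In library 2 globose basal-like cells had 67.6 CPM, early OSN/INP-like cells (INP, immediate neuronal precursors) 244, cluster 9 43.8, immature OSN-like cells 120, cluster 4 11861 and mature OSN-like cells 14213. In library 1 globose basal-like cells had 12.5 CPM, early OSN/INP-like cells 0 UMIs (which allows up to 11.8 CPM), cluster 9 34.0 CPM, immature OSN-like cells 26.6, cluster 4 2004 and mature OSN-like cells 1796. The value of 244 CPM rested on 3 cells, which held 93.5% of its UMIs. Sustentacular-like cells, which support the neurons and are not of their lineage, had 95.2 CPM of S100a5 in library 2 and 25.5 CPM in library 1. The globose basal-like cells of both libraries and cluster 9 of library 2 lay below these levels.

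Pcp4l1 had 2 phases. In library 2 globose basal-like cells had 100.4 CPM, early OSN/INP-like cells 334, cluster 9 284, immature OSN-like cells 145, cluster 4 1172 and mature OSN-like cells 1516. In library 1 the same stages had 71.6, 300, 334, 131, 457 and 287 CPM. From the early OSN/INP-like cells to the immature stage the intervals of the libraries overlapped, and from cluster 4 on they were far apart. Pcp4l1 was also found outside the lineage, at 302 CPM in sustentacular-like cells of library 2 and 304 CPM in those of library 1, and at 664 CPM in the 32 endothelial-like cells of library 2 and 815 CPM in the 32 of library 1.

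Calb2 was highest in immature OSN-like cells or in cluster 4. In library 2 early OSN/INP-like cells had 35.6 CPM, cluster 9 246, immature OSN-like cells 1652, cluster 4 1381 and mature OSN-like cells 527. In library 1 the same stages had 3.94 (1 UMI), 269, 1791, 2472 and 1523 CPM, with the highest level in cluster 4. Calb2 in mature cells was thus lower than in immature cells by 1.65 on the log2 scale in library 2 (interval -1.75 to -1.55) and by far less in library 1 (-0.23, -0.32 to -0.15). The direction of the pooled difference was not stable: it was 0.38 and 0.30 in other clusterings, which counted 234 and 238 of the 245 cells of cluster 7, a mixed cluster of very high UMI counts, as immature.

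Scgn was the member with the fewest UMIs. It had 2 UMIs in immature OSN-like cells of library 2 and 1 in library 1, stood at 21.6 CPM in cluster 4 of library 2 and 37.5 in that of library 1, and reached 44.3 CPM (36.0 to 54.1) in mature OSN-like cells of library 2 and 102 CPM (89.6 to 116) in those of library 1. It was highest at the mature stage in both libraries.

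**Figure D1:**
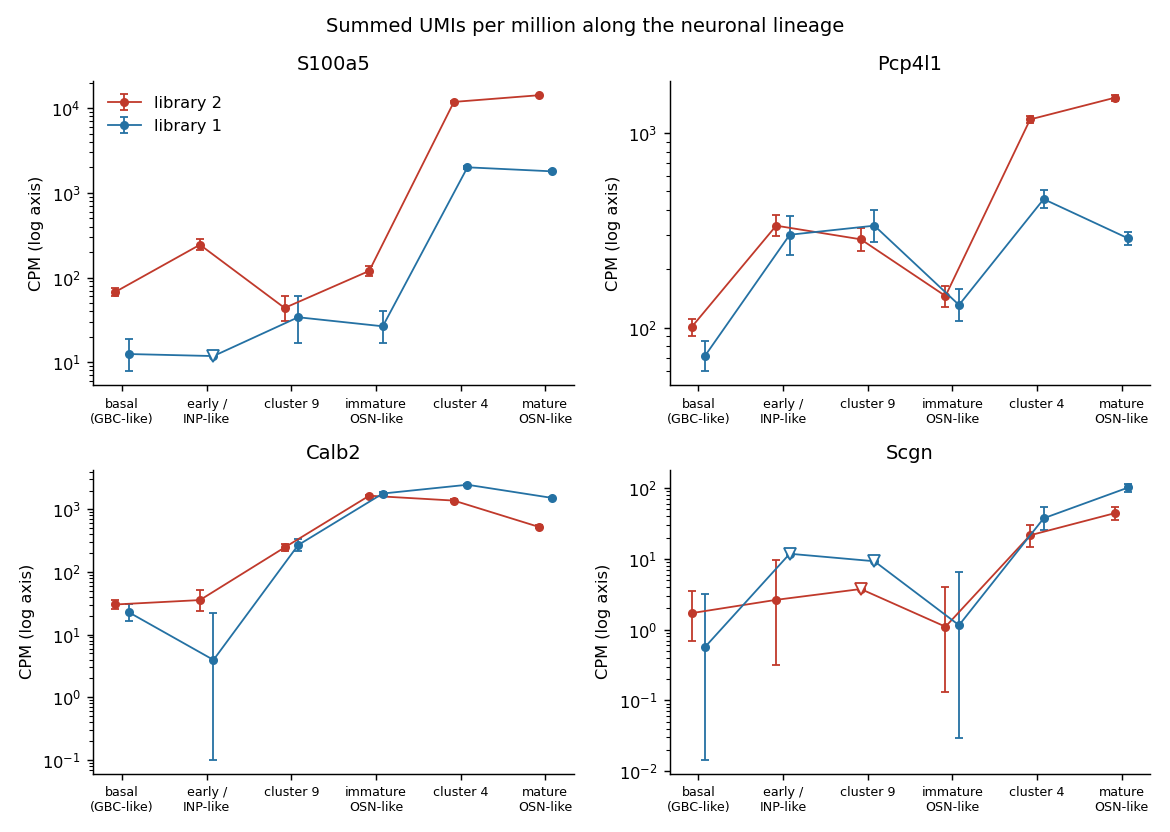
CPM of each gene (log axis) in summed UMIs of 6 classes ordered along the neuronal lineage, library 2 in red and library 1 in blue, with 95% counting intervals; open triangles mark classes with 0 UMIs, drawn at the level of 3 UMIs. S100a5 and Pcp4l1 are far apart between libraries from cluster 4 on (14213 against 1796 CPM and 1516 against 287 CPM in mature OSN-like cells of library 2 and library 1), and Calb2 is apart in the other direction.

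Ordering cells by their own Omp share, Omp UMIs over Omp plus Gap43 UMIs, with no use of clusters, gave similar orders. From the lowest share (under 0.1) over 0.1 to 0.5 and 0.5 to 0.9 to the highest (0.9 or more), S100a5 stood at 51.4, 187, 2552 and 12614 CPM in library 2 and at 11.99, 42.3, 332 and 1719 CPM in library 1. Calb2 stood at 870, 987, 973 and 413 CPM in library 2 and at 1379, 1925, 1552 and 1221 CPM in library 1. Calb2 was therefore lower in library 2 in every bin, while S100a5 was higher in every bin. In the lowest bin S100a5 lay below the level of sustentacular-like cells in each library (95.2 CPM in library 2 and 25.5 CPM in library 1). That limits what its difference in this bin shows. Pcp4l1 stood at 151, 194, 339 and 1406 CPM in library 2 and at 133, 114, 218 and 341 CPM in library 1, and was furthest apart in the highest bin. Scgn stood at 0, 5.07, 7.56 and 34.5 CPM in library 2 and at 1.498 (1 UMI), 0, 13.8 and 81.2 CPM in library 1, so that its difference between libraries was seen where Omp was highest. The bins take cells of any cluster: 1064 of the 1186 cells in the highest bin were in the neuronal clusters.

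In mature OSN-like cells, the contrast the members were chosen by, S100a5 stood at 14213 CPM (14056 to 14372) in library 2 and 1796 CPM (1741 to 1852) in library 1, a log2 difference of 2.98. Pcp4l1 stood at 1516 CPM (1464 to 1568) in library 2 and 287 CPM (265 to 310) in library 1, a difference of 2.40. Calb2 stood at 527 CPM (497 to 558) in library 2 and 1523 CPM (1472 to 1574) in library 1, a difference of -1.53, and Scgn differed by -1.19. By construction 2 members were 2-fold or more higher in library 2, as were 1.26% of the 8756 genes counted, and 2 were 2-fold or more lower, as were 0.537%. With the receptors seen in both libraries weighted equally, an alternative chosen after seeing the data, Scgn differed by -0.36, short of 2-fold. That value is a mean difference of log2 of UMIs per 10000 plus 1, while -1.19 is of summed CPM. Weighting and scale thus both changed, and the part of each was not tested. Omp differed by 0.15 in summed CPM. The single library behind each side means that the difference between sides, between capture runs and between library preparations cannot be told apart.

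Shares of cells and distributions over cells differed between the libraries for the 4 genes. To compare cells at 1 depth, each cell was thinned to 2000 UMIs, which left 450 mature OSN-like cells in library 2 and 434 in library 1. S100a5 was seen in 79.6% of thinned cells in library 2 (84.7% before thinning) and in 36.2% in library 1 (42.6% before). The share in sustentacular-like cells, taken as the level that free RNA gives, was 14.2% in library 2 and 3.71% in library 1, at median depths of 6090.5 and 6368 UMIs against 4684 and 5102 in mature OSN-like cells. The median cell of library 2 had 15 S100a5 UMIs and that of library 1 had 0, and the highest had 250 in library 2 (12.5% of that cell's thinned UMIs) and 60 in library 1 (3%). The ranges overlapped, since 20.4% of cells of library 2 had 0 and the 95th percentile of library 1 was 22.

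Pcp4l1 was seen in 52.2% of thinned mature cells of library 2 and 13.6% of library 1. Neutrophil-like cells, white blood cells taken as a class without the gene, gave 4.80% in library 2 and 1.85% in library 1 at median depths of 4867 and 4594 UMIs. Calb2 was seen in 29.3% of mature cells of library 2 and 67.5% of library 1, against 2.82% in sustentacular-like cells of library 2 and 3.58% in those of library 1. Scgn was seen in 7.56% of mature cells of library 2 and 17.5% of library 1, and in 0 of 958 thinned sustentacular-like cells of library 2 and 0 of 727 of library 1, which by a limit of 3 cells allows shares of up to 0.313% and 0.413%. The shares before thinning were 61.8% and 20.5% for Pcp4l1, 35.4% and 76.5% for Calb2 and 18.6% and 35.8% for Scgn in mature cells of library 2 and library 1. The shares of all 4 genes in mature cells were thus above these backgrounds in both libraries. S100a5 in other classes needs more care: in ensheathing-like glia it was at 2690 CPM in library 2 and 49.98 CPM in library 1, and 3 cells held 89.9% of its UMIs in library 2. It was seen in 43.9% (28.5 to 60.3) of 41 thinned glial cells of library 2 and in 12.9% (3.63 to 29.8) of 31 of library 1, at median depths of 5532 and 4880 UMIs, so that low counts were spread over more of these cells than of sustentacular-like cells in library 2. Sustentacular-like cells had 1.70 S100a5 UMIs for each Omp UMI in library 2 and 0.482 in library 1, against 2.38 and 0.334 in mature OSN-like cells of library 2 and library 1, so that the ratio was lower there than in the neurons of library 2 and higher than in those of library 1. For Calb2 it was 0.286 in sustentacular-like cells of library 2 and 0.381 in those of library 1. Mature OSN-like cells had lower ratios, 0.0883 in library 2 and 0.283 in library 1. Immature OSN-like cells had 3003 Calb2 UMIs and 452 Omp UMIs in library 2, and 1550 and 158 in library 1. The ratio of mature cells is thus not that of all neurons. The source of Calb2 in supporting cells was not tested. For Pcp4l1 the ratio was 5.38 in sustentacular-like cells of library 2 and 5.73 in those of library 1. Mature OSN-like cells had 0.254 in library 2 and 0.0533 in library 1, so that Pcp4l1 in supporting cells did not follow the ratio of mature cells in either library.

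Cell by cell, S100a5 and Calb2 were high in different cells, while S100a5 and Pcp4l1 were high in the same ones. Spearman's rho of thinned UMIs between S100a5 and Calb2 was -0.59 over 450 mature OSN-like cells of library 2 and -0.56 over 434 of library 1. Between S100a5 and Pcp4l1 it was 0.79 in library 2 and 0.54 in library 1, and between Pcp4l1 and Calb2 it was -0.50 in library 2 and -0.36 in library 1. These are descriptions over cells that share a library and a depth. The rho of Scgn with the other members lay between -0.12 and 0.11 in either library, and its low counts limit what a correlation can show.

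Calb2 was nearly absent at the top of the S100a5 range. In library 2, mature cells with 0, 1 to 4, 5 to 19 and 20 or more thinned S100a5 UMIs (92, 58, 102 and 198 cells) held means of 3.41, 1.43, 0.676 and 0.0606 Calb2 UMIs. In library 1 the same bins (277, 87, 43 and 27 cells) held 4.41, 1.77, 0.488 and 0.0370. Pcp4l1 ran the other way, with means of 0.0652, 0.345, 1.24 and 5.86 in library 2 and 0.0361, 0.115, 1.16 and 4.52 in library 1. The trend had the same direction in both libraries, and the bins held different shares of the cells: 44% of cells of library 2 and 6.22% of library 1 had 20 or more S100a5 UMIs. Omp stayed between 11.2 and 12.5 mean UMIs in the bins of library 2 and between 10.6 and 11.9 in those of library 1. Gap43 was seen in 21.7% of the cells with 0 S100a5 UMIs in library 2 and in 7.07% of those with 20 or more. In library 1 it was seen in 9.03% and 3.70% of the same bins. The part of maturity in the trend was not tested.

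**Figure D2:**
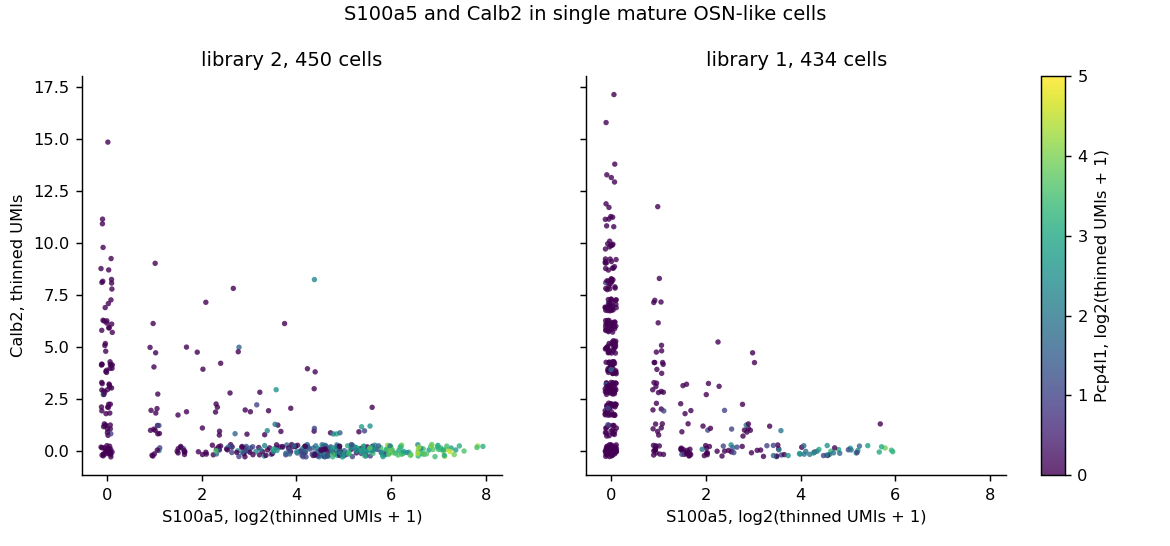
Calb2 (thinned UMIs, vertical axis) against S100a5 (log2 of thinned UMIs plus 1, horizontal axis) in single mature OSN-like cells of library 2 (left, 450 cells) and library 1 (right, 434 cells), coloured by Pcp4l1; points are spread slightly to show overlaps. Cells lie along the axes, with Calb2 in cells of low S100a5 and Pcp4l1 in cells of high S100a5, and library 2 fills the right side.

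Cells with UMIs of both S100a5 and Calb2 were fewer than the product of the shares would give. S100a5 and Calb2 were seen together in 14% of thinned mature cells of library 2, where that product is 23.3%, and in 14.1% of library 1, where it is 24.4%. Cells with neither made up 5.11% of library 2 and 10.4% of library 1. Pcp4l1 without S100a5 was seen in 2 cells of library 2 and 8 cells of library 1, beside 233 cells of library 2 and 51 of library 1 that held both. Most cells with Pcp4l1 thus also held S100a5, in library 2 nearly all of them. S100a5 was seen in 79.6% of all thinned mature cells of library 2. Pcp4l1 and S100a5 were seen together in 51.8% of library 2, where the product is 41.5%. In library 1 they were together in 11.8%, where it is 4.92%.

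The opposite levels of S100a5 and Calb2 were present in cluster 4 and were not seen at the immature stage. In cluster 4, rho between S100a5 and Calb2 was -0.73 over 273 thinned cells of library 2 and -0.44 over 133 of library 1, and rho between S100a5 and Pcp4l1 was 0.70 in library 2 and 0.56 in library 1. In immature OSN-like cells rho between S100a5 and Calb2 was -0.019 over 354 cells of library 2 and -0.048 over 144 of library 1, where few cells held S100a5 at all. Between S100a5 and Pcp4l1 it was 0.060 in library 2 and 0.15 in library 1 at that stage. Pcp4l1 and Calb2 already had a negative rho there, -0.18 in library 2 and -0.27 in library 1. In cluster 4, S100a5 also went with Omp (0.44 in library 2 and 0.095 in library 1) and against Gap43 (-0.43 in library 2 and -0.17 in library 1). Calb2 went against Omp (-0.46 in library 2 and -0.34 in library 1) and with Gap43 (0.48 in library 2 and 0.39 in library 1). The part of maturation within the cluster was not tested. In mature cells rho between S100a5 and Omp was 0.062 in library 2 and 0.11 in library 1. With Gap43 it was -0.15 in library 2 and -0.021 in library 1 for S100a5, and 0.21 in library 2 and 0.15 in library 1 for Calb2.

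With the same measure for each member, the genes whose level over mature cells was most like each member were ranked by Pearson's r of log2 values in the library where it was weaker, over 463 cells of library 2, 439 of library 1 and 3496 genes. Among the genes most like S100a5 were Pcp4l1 (0.79 in library 2 and 0.72 in library 1), Ckb (0.37 in library 2, 0.38 in library 1), a creatine kinase, Kirrel2 (0.48 in library 2, 0.36 in library 1), an adhesion molecule of olfactory axons, and Lrrc3b (0.46 in library 2, 0.34 in library 1). The lowest was Calb2 (-0.69 in library 2, -0.67 in library 1), then AC078895.1 (-0.45 in library 2, -0.36 in library 1) and Ppp3ca (-0.39 in library 2, -0.34 in library 1), which encodes a catalytic subunit of the calcium-dependent phosphatase calcineurin. Pcp4l1 thus stood at the near end and Calb2 at the far end of the list for S100a5.

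For Pcp4l1 the genes most alike included S100a5, Kirrel2 (0.57 in library 2, 0.43 in library 1), Ckb (0.37 in library 2, 0.35 in library 1) and 5730403I07Rik (0.31 in library 2, 0.56 in library 1), with Calb2 (-0.56 in library 2, -0.46 in library 1), AC078895.1 and Tmsb4x (-0.37 in library 2, -0.31 in library 1), an actin-binding thymosin, at the low end. For Calb2 the genes most alike were Ptn (0.42 in library 2, 0.43 in library 1), which encodes the growth factor pleiotrophin, Kirrel3 (0.40 in library 2, 0.37 in library 1), the adhesion relative of Kirrel2, Ppp3ca (0.35 in library 2, 0.39 in library 1), AC078895.1 (0.42 in library 2, 0.34 in library 1) and Sult1d1 (0.25 in library 2, 0.31 in library 1). Kirrel2 itself stood at 202 CPM in mature cells of library 2 and 39.3 CPM in those of library 1, and Kirrel3 at 72.2 CPM in library 2 and 154 CPM in library 1. For Scgn all values were weak: Tshz1 (0.15 in library 2, 0.23 in library 1), Prdx1 (0.19 in library 2, 0.14 in library 1), Cd36 (0.13 in library 2, 0.34 in library 1), Celf4 (0.15 in library 2, 0.12 in library 1) and Tppp3 (0.12 in library 2, 0.23 in library 1) came first, and Ubl3 (-0.12 in library 2, -0.14 in library 1), Gap43 (-0.11 in library 2, -0.11 in library 1) and Rab1b (-0.11 in library 2, -0.13 in library 1) came last. With so few Scgn UMIs these are no finding.

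Cells that carried the same receptor resembled each other in S100a5, Pcp4l1 and Calb2. A receptor was assigned to a cell with 3 or more UMIs of its leading receptor gene and at least 2 of every 3 receptor UMIs from that gene, which assigned 446 of 463 mature cells in library 2 and 411 of 439 in library 1. The intraclass correlation, the share of the variance in log2 level that lies between receptors, was taken over receptors with 2 or more cells (99 receptors and 253 cells in library 2, 82 and 229 in library 1). It was 0.83 for S100a5 in library 2 and 0.67 in library 1. Pcp4l1 had 0.85 in library 2 and 0.81 in library 1, Calb2 0.74 in library 2 and 0.62 in library 1, and Scgn -0.028 in library 2 and 0.067 in library 1. For Omp it was 0.16 in library 2 and -0.0072 in library 1.

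Among the 3497 genes with enough UMIs to rank, the intraclass correlation in the weaker library placed Pcp4l1 at 2, S100a5 at 3 and Calb2 at 5, and Scgn at 1870. The first was Cd36, a scavenger receptor of a known subset of olfactory neurons (0.86 in library 2 and 0.87 in library 1), and the fourth was Nqo1, a marker of the dorsal zone of the epithelium (0.80 in library 2 and 0.66 in library 1). A value of 0.5 or more in both libraries was reached by 3 of the 4 members and by 0.286% of the genes ranked, 10 in all. That threshold was set after the values had been seen. S100a5, Pcp4l1 and Calb2 thus varied with the receptor, and Scgn did not do so measurably at its level of 0 to 3 thinned UMIs a cell.

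**Figure D3:**
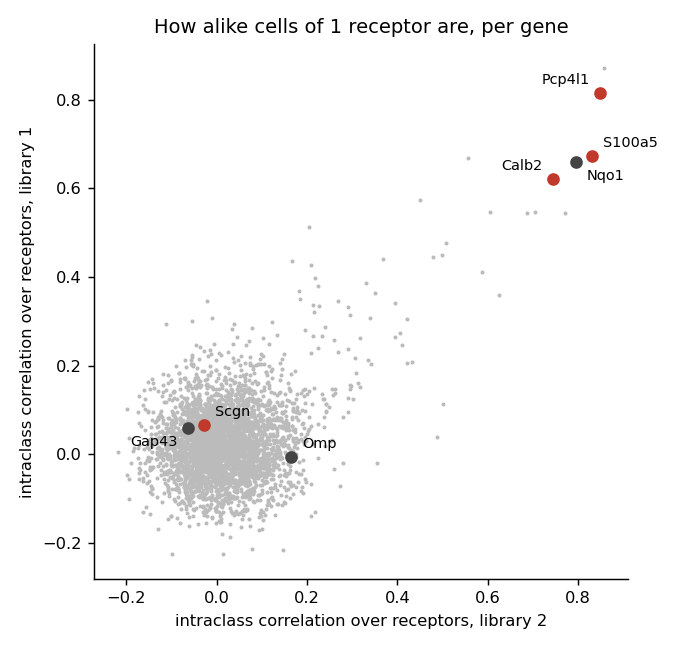
Intraclass correlation over receptors of 3497 genes in mature OSN-like cells, library 2 on the horizontal axis and library 1 on the vertical axis; grey points are single genes, red points the 4 members and dark points Omp, Gap43 and Nqo1. Pcp4l1, S100a5 and Calb2 lie in the sparse upper right corner and Scgn in the central cloud.

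Among cells with 1 zone marker, S100a5, Pcp4l1 and Calb2 still had values of about 0.5 or more in library 2, and Calb2 fell below 0.5 in library 1. These splits were chosen after the data had been seen. In cells with Ncam2, a marker of the ventral zones, and no Nqo1 UMI (147 in library 2 and 141 in library 1), the intraclass correlation was 0.91 in library 2 and 0.50 in library 1 for S100a5, 0.91 in library 2 and 0.73 in library 1 for Pcp4l1, and 0.76 in library 2 and 0.37 in library 1 for Calb2. In cells with Nqo1 and no Ncam2 UMI (93 in library 2 and 62 in library 1), it was 0.50 for S100a5, 0.75 for Pcp4l1 and 0.76 for Calb2 in library 2 (15 receptors, 33 cells), and library 1 had too few receptors for a value. In library 2 the level of S100a5 was 15048 CPM (14684 to 15420) in the Nqo1 cells and 14745 CPM (14466 to 15029) in the Ncam2 cells, with overlapping intervals. That of Calb2 in library 2 was 720 CPM (642 to 805) in the Nqo1 cells and 525 CPM (473 to 581) in the Ncam2 cells, and these intervals did not overlap. In library 1 S100a5 was apart by zone, with 435 CPM (362 to 519) in the Nqo1 cells and 2297 CPM (2194 to 2405) in the Ncam2 cells, and Pcp4l1 was at 35.1 CPM in the Nqo1 cells and 449 CPM in the Ncam2 cells. Calb2 in library 1 stood at 2179 CPM in the Nqo1 cells and 1388 CPM in the Ncam2 cells, so that it was higher in the Nqo1 cells of both libraries.

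Some of this dependence was in place in cluster 4, where the intraclass correlation was 0.54 in library 2 and 0.44 in library 1 for S100a5, 0.76 in library 2 and 0.74 in library 1 for Pcp4l1, and 0.47 in library 2 and 0.48 in library 1 for Calb2 (45 receptors with 107 cells in library 2, and 16 with 34 in library 1). In immature OSN-like cells of library 2 (46 receptors, 113 cells) it was 0.11 for S100a5, 0.21 for Pcp4l1 and 0.091 for Calb2. In those of library 1 (9 receptors, 21 cells) it was 0.21 for S100a5, 0.27 for Pcp4l1 and 0.80 for Calb2. S100a5 and Pcp4l1 thus had higher values at the later stages in both libraries, and Calb2 did so in library 2 while its value in library 1 was highest at the immature stage, on few cells. S100a5 at the immature stage was near the level of sustentacular-like cells, which limits its value there. In cluster 4 the intraclass correlation of Scgn was 0.34 in library 2 and -0.19 in library 1, at its low counts. Kirrel2, which is not a member, had 0.43 in library 2 and 0.34 in library 1 there. These are descriptions with no test.

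The receptors with 4 or more assigned mature cells show what these shares mean. Cells of Olfr1260 (chromosome 2, 89974340 to 89981586, plus strand, in the mm10 build) had 213, 319, 331 and 332 S100a5 UMIs per 10000 in library 2, and 114, 122, 171, 172, 221 and 226 in library 1. None of the 4 cells in library 2 and 1 of the 6 in library 1 had a Calb2 UMI. Among these receptors it was the highest in S100a5 in both libraries, with means of 299 in library 2 and 171 in library 1. Olfr1260 and Olfr1297 were picked by their values, from opposite ends of the S100a5 range.

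Cells of Olfr1297 (chromosome 2, 111615233 to 111626497, minus strand) had 0 S100a5 UMIs in all 4 cells of library 2 and all 4 of library 1. Their Calb2 was 31.0, 6.95, 4.08 and 2.82 per 10000 in library 2, and 13.2, 31.1, 13.9 and 29.3 in library 1. All 8 cells held Calb2, and the libraries overlapped.

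Olfr1348 (chromosome 7, 6499793 to 6508748, minus strand) differed between libraries in every cell. Its cells had 17.6, 35.3, 59.5 and 109 S100a5 UMIs per 10000 in library 2, and 0 in all 5 cells of library 1. Calb2 was 2.93, 3.53, 25.8 and 0 in the same cells of library 2, and 29.9, 34.7, 31.9, 34.0 and 48.0 in library 1. Neither gene overlapped between libraries for this receptor, which was picked after its values had been seen. Both genes were chosen by the same contrast, and cells of 1 library are not replicates. How often other receptors failed to overlap was not counted, so this is an example only.

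Other receptors of library 2 ranged as widely. The highest S100a5 means after Olfr1260 were in Olfr720 (170 per 10000, 6 cells, 98.5 to 269) and Olfr286 (140, 4 cells, 45.8 to 280), and the lowest, at 0, were in Olfr728 (7 cells), Olfr794 (4 cells) and Olfr1297. The highest Calb2 means were in Olfr1507 (32.5, 4 cells, 23.4 to 43.9), Olfr728 (20.6, 7 cells, 6.57 to 30.1) and Olfr827 (19.3, 4 cells). Olfr1260 and Olfr720 had no Calb2 UMI in library 2, and Olfr801 averaged 0.41. Pcp4l1 was highest in Olfr1260 (41.7), Olfr720 (19.2) and Olfr727 (17.5), and 4 of the 11 receptors had none, Olfr1507, Olfr728, Olfr794 and Olfr827.

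In library 1, with 18 such receptors, S100a5 was highest in Olfr1260 (171), Olfr571 (116, 4 cells, 26.0 to 240) and Olfr1220 (65.1, 4 cells, 8.63 to 108), and 0 in Olfr1297, Olfr1348, Olfr1437, Olfr1442 and Olfr55. Calb2 was highest in Olfr1442 (42.7), Olfr55 (37.8) and Olfr1348 (35.7), and lowest in Olfr1260 (0.24), Olfr571 (1.15) and Olfr1220 (1.85). The receptors lowest in Calb2 were those highest in S100a5. Scgn means were at most 2.35 per 10000 in any of these receptors, in either library.

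**Figure D4:**
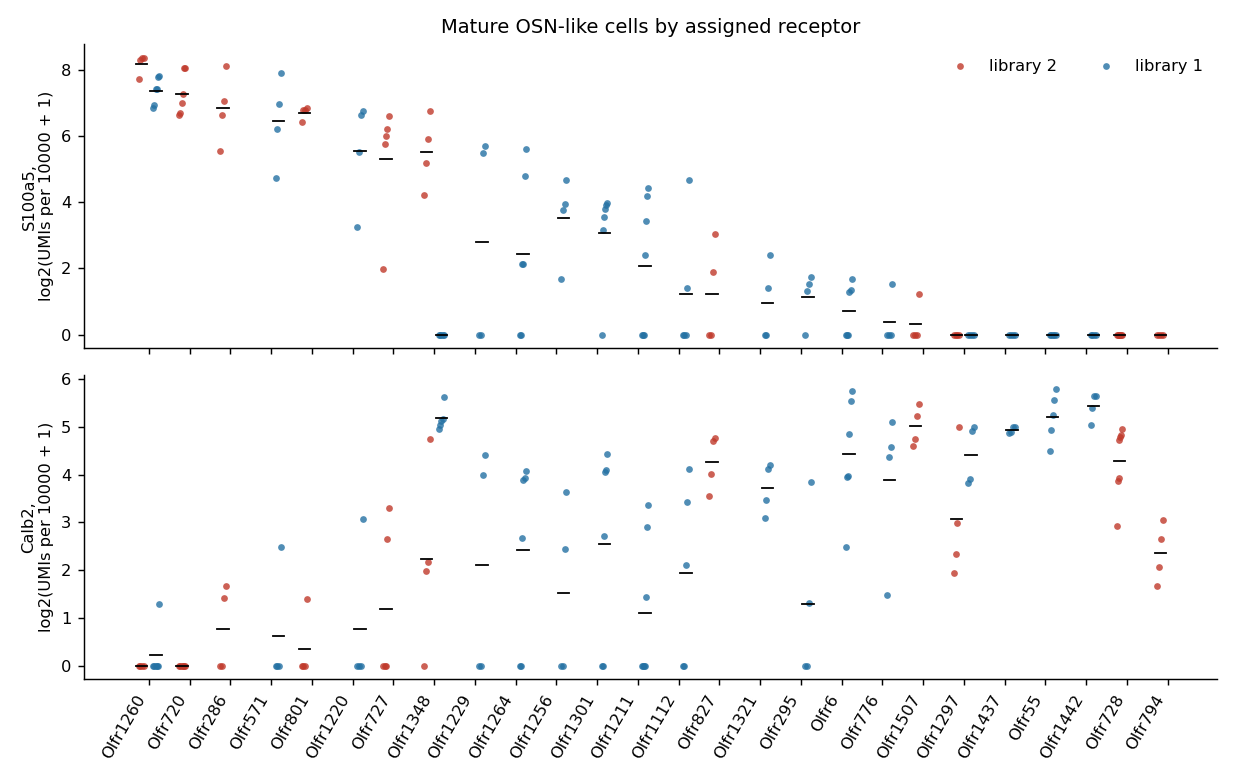
S100a5 (top) and Calb2 (bottom), as log2 of UMIs per 10000 plus 1, in single mature OSN-like cells of the receptors with 4 or more assigned cells in a library, library 2 in red (left of the tick) and library 1 in blue (right); bars are means and receptors are ordered by mean S100a5. Receptors high in S100a5 sit low in Calb2, and cells of Olfr1348 lie apart by library.

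Across receptors, the mean levels of S100a5 and Calb2 had a Pearson correlation of -0.73 over 99 receptors of library 2 and -0.68 over 82 of library 1, and those of S100a5 and Pcp4l1 had 0.81 in library 2 and 0.79 in library 1. Within receptors, taking each cell's deviation from its receptor's mean, the relation of S100a5 and Calb2 was much weaker, at -0.17 over 253 cells of library 2 and -0.32 over 229 of library 1. The values for the same cells before that subtraction were -0.68 in library 2 and -0.63 in library 1. For S100a5 and Pcp4l1 they were 0.34 within receptors in both libraries, and 0.77 in library 2 and 0.72 in library 1 before. The opposite levels of S100a5 and Calb2 were thus seen more between receptors than between cells of 1 receptor. This split was chosen after the data had been seen, and counting error, which weighs more on the deviations, had a part in it that was not tested.

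With the receptor held fixed, the libraries still differed. Of 33 receptors with 2 or more mature cells in each library, S100a5 was higher in library 2 in 28, lower in 2 and equal in 3, with a median log2 difference of 3.94 (range -0.96 to 8.26). Pcp4l1 was higher in library 2 in 22 and lower in 3, with a median of 0.93. Calb2 was higher in 2 and lower in 30, with a median of -2.05, and Scgn was higher in 10 and lower in 19, with a median of -0.25. In 25 of the 33 receptors S100a5 was higher and Calb2 lower at once. Omp was higher in library 2 in 27, with a median of 0.30. The members were chosen by this contrast, so the counts describe how it was spread over receptors.

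For many receptors no UMI of a gene was seen in 1 library. The mean of S100a5 was 0 in 5 of the 33 receptors in library 2 and in 15 in library 1, 3 of which were at 0 in both, and that of Calb2 was 0 in 18 in library 2 and in 2 in library 1. S100a5 differed most in Olfr1222 (log2 mean 8.26 in library 2 and 0 in library 1, 2 cells each), Olfr776 (8.62 in 2 cells of library 2 and 0.38 in 4 of library 1) and Olfr1112 (9.14 in 2 cells of library 2 and 1.22 in 5 of library 1). The order of receptors was kept only in part, with a Spearman rho between the libraries' receptor means of 0.32 for S100a5, 0.38 for Pcp4l1, 0.49 for Calb2 and 0.0027 for Scgn. Means of as few as 2 cells carry a large error, and the part of counting error in the rho was not tested.

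**Figure D5:**
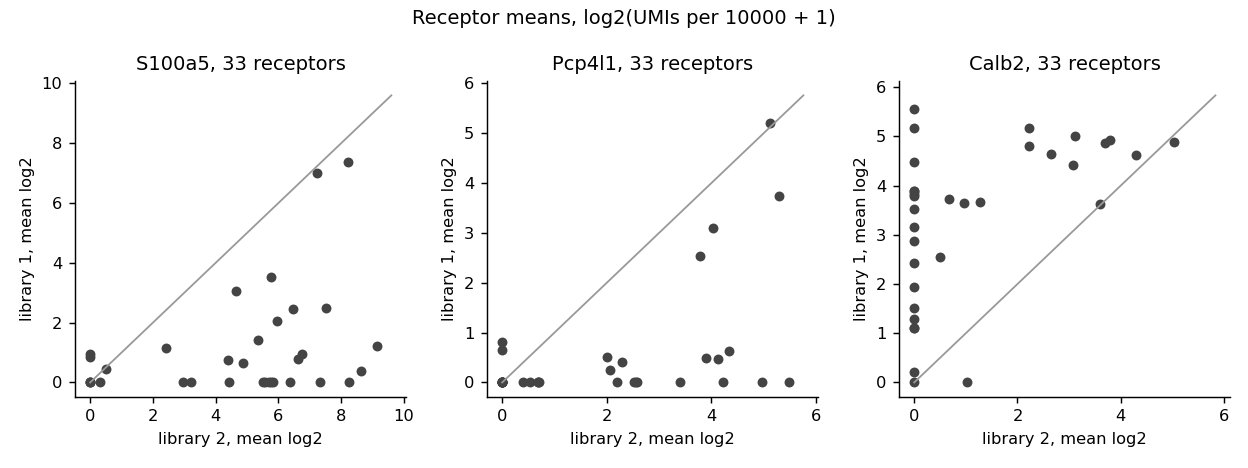
Mean log2 of UMIs per 10000 plus 1 of S100a5, Pcp4l1 and Calb2 for 33 receptors with 2 or more mature OSN-like cells in each library, library 2 on the horizontal axis and library 1 on the vertical axis; the line marks equal values. S100a5 lies below the line in 28 receptors and Calb2 above it in 30.

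Outside the members and the S100 family, the lists of calcium genes held 1 gene that was 2-fold apart between the libraries. Of 137 genes in 8 lists, covering the other S100 proteins, buffers, sensors, calmodulins and their enzymes, pumps, channels and reticulum binders, 68 were measured in mature OSN-like cells at 10 CPM or more in either library. Of these, 5 were 2-fold or more higher in library 2 and 0 were lower, beside the 1.26% and 0.537% of all genes above, and their median log2 difference was 0.071 against -0.0021 over all genes. The buffers, sensors, calmodulins, calmodulin-dependent enzymes, pumps and channels had 0 genes past 2-fold in either direction.

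Those 5 genes were S100a3, S100a6, S100a8, S100a9 and Anxa11. S100a3 (24.2 CPM in library 2, 2.19 in library 1) and S100a6 (66.7 CPM in library 2, 8.74 in library 1) lie beside S100a5 on the plus strand of chromosome 3. S100a6 starts 1101 bases after S100a5 ends, and S100a4 (4 UMIs in library 2, 2 in library 1) lies between S100a3 and S100a5, ending 2477 bases before S100a5 starts. The gene models of S100a5, S100a6, Pcp4l1 and Calb2 overlap no other gene in GENCODE M21, and Scgn overlaps Gm11339 on the opposite strand. Reads that run past the end of S100a5 cannot be told from those of the next gene in these counts, at 146 S100a6 UMIs beside 31098 of S100a5 in library 2 and 20 beside 4108 in library 1. Spearman's rho of S100a6 with S100a5 over thinned mature cells was 0.26 in library 2 and 0.15 in library 1.

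S100a8 and S100a9, which encode the neutrophil protein calprotectin, stood at 33.8 and 32.0 CPM in mature cells of library 2 and 11.4 and 5.25 CPM in those of library 1. In neutrophil-like cells they stood at 130857 and 108168 CPM in library 2 and at 146479 and 126194 CPM in library 1. Sustentacular-like cells held 73.7 and 44.6 CPM in library 2 and 6.38 and 5.85 CPM in library 1, so the level in these other cells moved with the library as well; its part in the result was not tested. Library 2 held 249 neutrophil-like cells and library 1 held 56.

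Between stages, single genes of the calcium lists were far apart, in both directions. Of 86 genes of the same lists counted in the mature or the immature OSN-like cells, 14 were 2-fold or more higher in mature cells and 24 lower, that is beside the 10.8% and 14.9% of all genes, with a median log2 difference of -0.15 in the lists and -0.15 over all genes. Higher in mature cells, among the genes with 50 CPM or more at either stage, were the calmodulin gene Calm2 (5617 against 2391 CPM), Pde1c (378 against 55.1), the calmodulin-dependent phosphodiesterase of olfactory cilia, and Camk2d (646 against 288), a calmodulin-dependent kinase. So were the channel subunit Cacnb3 (486 against 95.8 CPM), the store-operated channel Orai2 (68.6 against 33.2), and the EF-hand genes Necab3 (98.1 against 4.47), Vsnl1 (103 against 11.6), Sri (92.7 against 24.2) and S100a13 (70.2 against 30.2). In mature cells the counting intervals of the libraries overlapped for Orai2, Vsnl1 (106 CPM in library 2 and 99.2 CPM in library 1) and Sri (92.3 CPM in library 2 and 93.1 CPM in library 1). They did not overlap for the others of these genes, such as Necab3 (76.8 CPM in library 2 and 118 CPM in library 1). Calm2 and Cacnb3 were, like Necab3, higher in library 1. S100a13 (84.1 CPM in library 2 and 56.8 CPM in library 1), Camk2d (707 and 587) and Pde1c (415 and 342) were higher in library 2. None of these genes passed 2-fold between libraries. How many of all genes failed to overlap was not counted, so this is a description only.

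Lower in mature cells by the same rule were S100a10 (0.22 against 76.4 CPM), the annexin partner, and Pcp4 (0.22 against 71.5), the relative of Pcp4l1, each with 1 UMI in all mature cells. Camk2n1, an inhibitor of CaM kinase II, was at 40.0 against 407 CPM, Necab2 at 24.4 against 91.3 and Camk2g at 18.99 against 50.7. Gap43, which binds calmodulin and is the immature marker, was at 56.5 against 1701 CPM.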

How the data were processed

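The deposited file holds UMI counts per gene and barcode, pooled over both libraries and not normalized, per the file headers and values. The submitters' processing notes name Cell Ranger 3.0.2 and mm10, and whether depth was equalised when the libraries were joined is unknown here. The members and the lists were chosen with earlier results of these data known.

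Kept cells had 1000 or more UMIs, 500 or more genes and at most 10% mitochondrial UMIs. Cells were clustered with scanpy 1.11.5 (2000 variable genes without the members, receptor and mitochondrial genes; 30 components, 15 neighbours, Leiden resolution 1). A cluster was named from 3 or more preset markers among its top 50 genes. Doublets were kept: scrublet called 63 of the 8298 cells. Fold changes are log2 of summed CPM plus 1. Intervals are exact Poisson or Clopper-Pearson. No test was run, as each group is 1 library. S100a5 ranges replaced the planned bins of equal size, since most cells of library 1 held 0. Named genes were the members, list genes 2-fold apart at 50 CPM or more, the 5 highest and 3 lowest correlated genes per member, and the 3 highest and 3 lowest receptors; S100a3, S100a4, S100a8, S100a9, Anxa11, Olfr1348, Olfr1222, Olfr776, Olfr1112, Cd36 and Nqo1 were named after their values were seen. The calculations recovered known changes in simulated data. Some genes that these rules name are not reported here.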

Additional observations from a re-analysis of the deposited data

How the results depend on the processing

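The differences between libraries in mature OSN-like cells kept their direction for the 4 genes under all 12 alternatives. S100a5 (2.98 on the log2 scale) was 3.04 with the members among the clustering genes, 2.91 without genes that differed between libraries, 3.27 with at most 5% mitochondrial UMIs, 2.87 with cells taken by an Omp share of 0.9 or more, 3.09 as a mean of CPM per cell or without the 3 highest cells, and 4.01 with receptors weighted equally. Pcp4l1 (2.40) was 2.28 without the differing genes, 2.84 with at most 5% mitochondrial UMIs, 2.04 by Omp share, 2.54 as a mean of CPM, 2.60 without the 3 highest cells and 2.09 over receptors. Calb2 (-1.53) was -1.64 with the members, -1.43 without the differing genes and -2.17 over receptors, and Scgn (-1.19) was -0.36 over receptors. The values over receptors are mean differences of log2 of UMIs per 10000 plus 1, another scale than summed CPM. They are therefore not directly comparable with the other values.

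Between mature and immature cells, S100a5 (6.44) was 6.88 in library 2, 6.03 in library 1, 4.66 without the differing genes, 4.62 at resolution 0.5 and 7.45 between the ends of the Omp share. Pcp4l1 (2.65) was 3.37 in library 2, 1.13 in library 1, 1.96 without the differing genes and 1.98 at resolution 0.5. Calb2 (-0.71) was -1.65 in library 2, -0.23 in library 1, -0.78 with the members, -0.32 by Omp share, and turned to 0.38 without the differing genes and 0.30 at resolution 0.5. Scgn (5.15) was 4.43 in library 2, 3.05 without the differing genes and 3.20 at resolution 0.5. In these last 2 clusterings 234 and 238 of the 245 cells of cluster 7 counted as immature, and 170 and 145 cells of cluster 4 as mature.

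As deviations from the receptor mean, rho of S100a5 and Calb2 was -0.027 in library 2 and -0.26 in library 1, and that of S100a5 and Pcp4l1 0.37 in library 2 and 0.23 in library 1. Within Ncam2 cells the intraclass correlation in library 1 was 0.50 for S100a5 and 0.37 for Calb2, and in library 2 -0.28 for Scgn. These settings and the equal weighting of receptors were chosen after seeing the data. With a minimum of 50 CPM 1 calcium gene was 2-fold higher in library 2, and with no minimum 13 were higher and 2 lower, by construction of the filter. For the other changes the cause was not tested. A median scaling factor of 0.981 left levels nearly in place.

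No paired analysis was possible because each side gave 1 library. Depth limits Scgn most: its counts are too few for a value per cell. Side, capture run and preparation cannot be told apart.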
